A study of Drosophila melanogaster with 6 samples.

Results

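The genes described here encode mitochondrial ribosomal proteins of Drosophila melanogaster. They were chosen by name, as genes whose symbol starts with mRpL (large subunit) or mRpS (small subunit) followed by a number and that have a probe set assigned to them alone. That gave 69 genes of the 11982 measured by a probe set of 1 gene, 44 of the large and 25 of the small subunit. They came from 71 probe sets, and the brighter probe set was taken for mRpL47 and mRpS11, which have 2 each.

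RNA was measured in whole male larvae of w1118, a white-eyed laboratory strain, on 6 Affymetrix expression arrays. Virgin w1118 mothers had eaten food with 1 M sucrose (3 arrays, high-sucrose) or 0.15 M sucrose (3 arrays, control) for 7 days before mating with males on control food. All larvae of both groups grew on control food at 25 C. They spent 12 h on fresh control food before collection, so by the treatment labels only the diet of the mothers differed. The titles, however, call the larvae high sugar reared or control reared. The titles and descriptions call the larvae wandering and the other labels place them in the middle of the third instar, and no label says how many larvae or mothers an array stands for.

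Mitochondria keep their own ribosomes, which translate a small set of membrane proteins of the respiratory chain and the ATP synthase encoded in mitochondrial DNA. All protein subunits of these ribosomes are encoded in the nucleus, made in the cytosol and imported, where they assemble on ribosomal RNAs transcribed inside the organelle. The small subunit decodes the messenger RNA, and the large subunit holds the peptidyl transferase centre and the exit tunnel through which the new protein leaves. In flies, mutations in such genes slow larval growth: tko, the gene of the protein numbered S12 in bacteria, gave its name to a bang-sensitive, slow-developing mutant.

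As a check of the tissue label, markers of several tissues were read on the same arrays. Of the markers with a probe set, 6 of 6 for midgut, 3 of 3 for muscle, 6 of 10 for testis, 3 of 3 for fat body, 1 of 3 for neurons and 6 of 6 for salivary gland lay above the median of all intensities. Summed midgut markers lay at 11570 to 12570 in high-sucrose arrays and 18160 to 18650 in control arrays, with 4 of 6 called lower. Summed testis markers lay at 3846 to 3996 in high-sucrose arrays and 2969 to 3493 in control arrays, with 1 of 10 called higher. By the same test, which is defined below, 0.81% of all genes were called lower and 0.0668% higher. Summed markers of muscle, neurons and salivary gland overlapped between the groups, and those of fat body lay at 20700 to 21350 in high-sucrose arrays and 21670 to 23910 in control arrays, with 0 called. Whether these shifts play a part in any difference given below was not tested. The midgut markers were all protease or maltase genes. In RNA of whole larvae, fewer cells of a type and less RNA of its marker genes per cell cannot be told apart.

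None of the 69 mitoribosomal genes passed the test between the maternal diets. A gene is called here where limma's adjusted p, with the Benjamini-Hochberg correction run on the full set of 18769 probe sets, is under 0.05. Of those probe sets 0.623% were called (0.0533%, or 10, higher and 0.57%, or 107, lower in high-sucrose arrays), and of the 11982 genes 0.876% (0.0668% higher and 0.81% lower). At an unadjusted p under 0.05, 5 mitoribosomal genes were lower and 0 higher, which is 7.25% of them, against 14.5% of all genes (4.06% higher and 10.4% lower). In 14 of the 69 the arrays of the groups did not overlap (20.3%, 13 lower and 1 higher), against 21.2% of all genes. Taken by direction, 18.8% of the mitoribosomal genes were lower without overlap, against 14.5% of all genes, and 1 was higher, against 6.73% of all genes. Among the genes in the brighter 50% of probe sets, where all 69 belong, 18.3% were lower without overlap. The count at an unadjusted p was thus under the background, and the count without overlap was near it.

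Most of the genes nonetheless lay slightly lower where the mothers had eaten high-sucrose food. The log2 difference (high-sucrose minus control, on log2 of intensity plus 16) was below 0 in 56 of 69 genes and above 0 in 13, against 59.7% below 0 and 40.3% above 0 among all genes. Its median was -0.075, which is 5.09% lower in intensity plus 16. The median was -0.035 over all genes and -0.044 over the genes in the brighter 50% of probe sets, the same set as above. The middle of the distribution was narrow, with quartiles of -0.12 and -0.015. Quantile scaling and cyclic loess each left 43 of 69 below 0, and median centring left 49, so the count below 0 depends on how arrays are scaled. The size does too: the median log2 difference was -0.038 over the large and -0.015 over the small subunit under quantile scaling, -0.039 and -0.026 under cyclic loess, and -0.05 and -0.043 under median centring. The median of all probe sets was then 0.0031, 0.00092 and -0.0075, against -0.034 without rescaling.

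**Figure D1:**
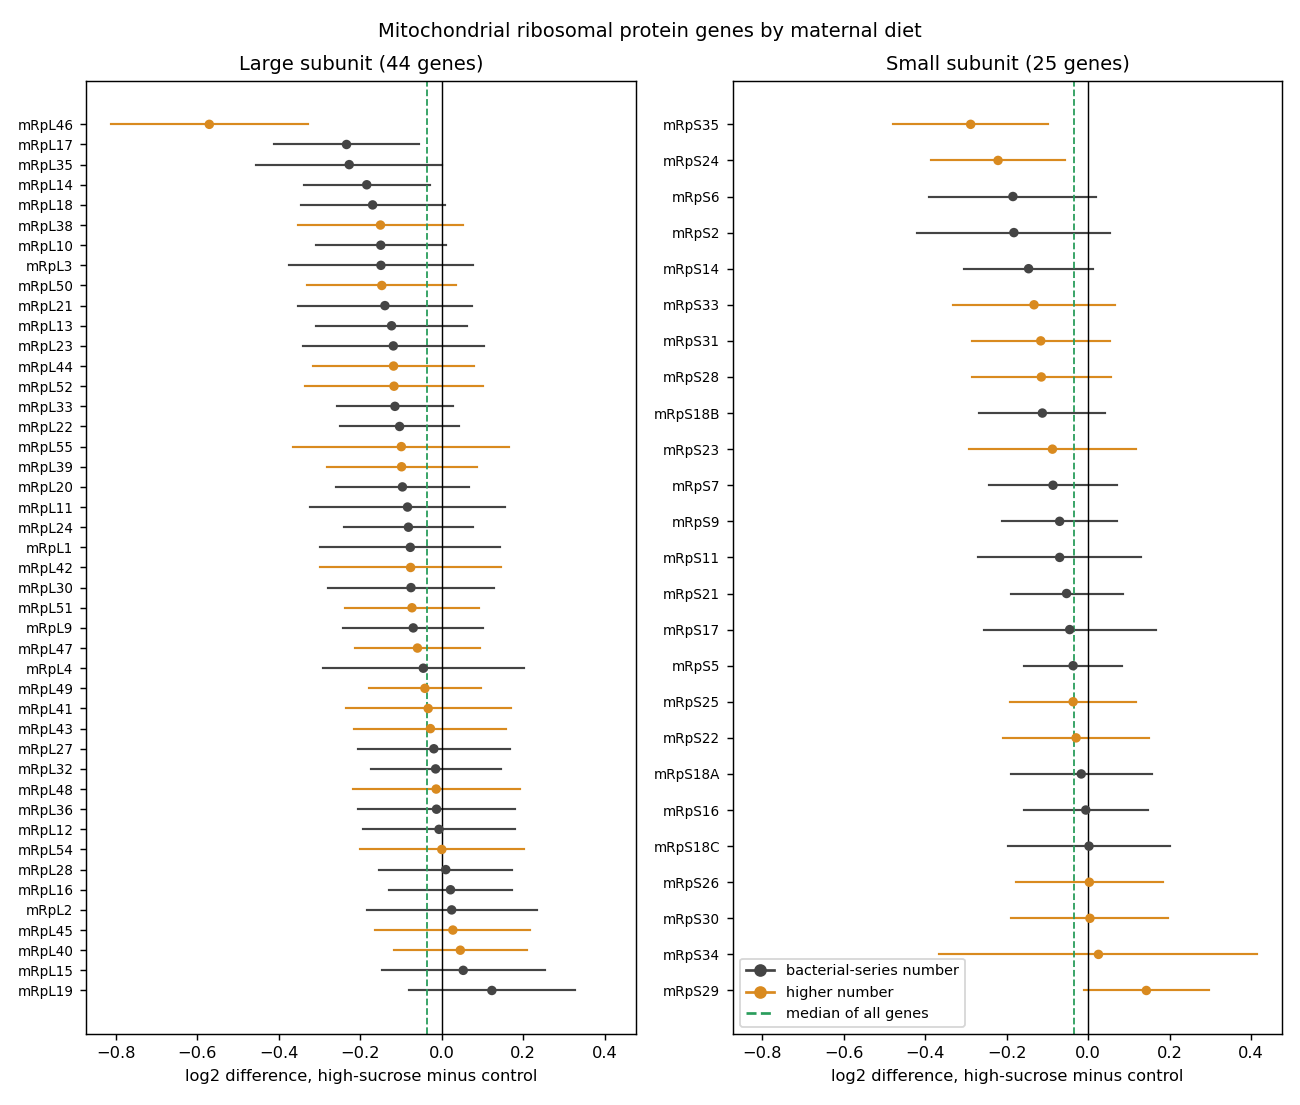
Log2 difference in intensity, high-sucrose minus control (x axis), for each of the 44 large-subunit and 25 small-subunit genes, with limma's 95% confidence interval as a line. The genes run from lowest to highest, black for numbers of the bacterial series and orange for higher numbers; mRpL46 at -0.57 stands apart from all others, which lie between -0.29 and 0.14.

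The intervals show what the arrays could resolve. The 95% interval of a gene reached from 0.12 (mRpS5) to 0.39 (mRpS34) either side of its log2 difference, with a median of 0.19. In 5 genes it lay wholly below 0, namely mRpL46, mRpL17 and mRpL14 of the large subunit and mRpS35 and mRpS24 of the small. The intervals are not adjusted for the number of probe sets tested, so these are the 5 genes with limma's unadjusted p under 0.05. They make up 7.25% of the 69, against 14.5% of all genes (10.4% lower), and none of them passed the test.

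mRpL46 showed the largest difference of the group. Its protein has no counterpart in bacterial ribosomes and sits, in mammalian structures, at the central protuberance of the large subunit. Its intensity was 168, 155 and 203 in high-sucrose arrays (replicates 1 to 3), against 270.5, 240 and 291 in control arrays. Every high-sucrose array lay below every control array, and the highest of them stayed clear of the lowest control. The means were 175 ± 25.1 in high-sucrose arrays and 267 ± 25.4 in control arrays (SD, n = 3 each), a log2 difference of -0.57 ± 0.11 (SE; limma adjusted p = 0.0606), which just missed the threshold. The adjusted p was 0.0439 with the replicate number as a block, 0.0311 under median centring and 0.0387 with array weights, and 0.0875 under quantile scaling, 0.0791 under cyclic loess and 0.235 without the intensity trend in the variances. Leaving out any 1 array gave adjusted p from 0.0558 (without high-sucrose 3) to 0.221 (without control 3), with log2 differences from -0.67 to -0.49. Its neighbours on chromosome arm 3L showed smaller differences that did not pass: CG2021 had 267 ± 5.53 in high-sucrose arrays and 292 ± 20.5 in control arrays (log2 difference -0.12; adjusted p = 0.516), and alpha-Spec, which encodes a spectrin of the membrane skeleton, had 1168 ± 91.8 and 1241 ± 100.4 (-0.085; adjusted p = 0.69).

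Within the large subunit, the next smallest p belonged to mRpL17 and mRpL14, which have bacterial counterparts. mRpL17, whose protein lies at the rim of the exit tunnel in bacteria, had 186, 170 and 159 in high-sucrose arrays, against 202, 199 and 212 in control arrays. mRpL14, a protein of the face that meets the small subunit, had 337, 317 and 338.5 in high-sucrose arrays, against 355, 374 and 406 in control arrays. In both genes the groups did not overlap, with the narrowest gap for mRpL17 between high-sucrose 1 and control 2. The log2 differences were -0.23 ± 0.079 for mRpL17 (SE; limma adjusted p = 0.263) and -0.18 ± 0.068 for mRpL14 (limma adjusted p = 0.31).

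In the small subunit the lowest log2 differences were those of mRpS35 and mRpS24. mRpS35, which bacterial ribosomes lack, had 175, 202.5 and 178 in high-sucrose arrays, against 216, 224 and 247 in control arrays. mRpS24, the mammalian relative of which holds the place of a bacterial protein at the entry of the messenger RNA, had 198, 207 and 191.5 in high-sucrose arrays, against 218.5, 244 and 241 in control arrays. Both kept the groups apart on every array. Their log2 differences were -0.29 ± 0.084 (SE; limma adjusted p = 0.20) for mRpS35 and -0.22 ± 0.073 (limma adjusted p = 0.257) for mRpS24.

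mRpS29 was the only member whose high-sucrose arrays all lay above the control arrays. It encodes the fly relative of DAP3, a GTP-binding protein first described in human cells as a mediator of cell death. It had 267, 242 and 244 in high-sucrose arrays, against 227, 229 and 221.5 in control arrays. The log2 difference was 0.14 ± 0.068 (SE; limma adjusted p = 0.44), the highest of the 69 genes. The other genes above 0 reached at most 0.12, for mRpL19 (adjusted p = 0.618), which was chosen after its values were seen.

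**Figure D2:**
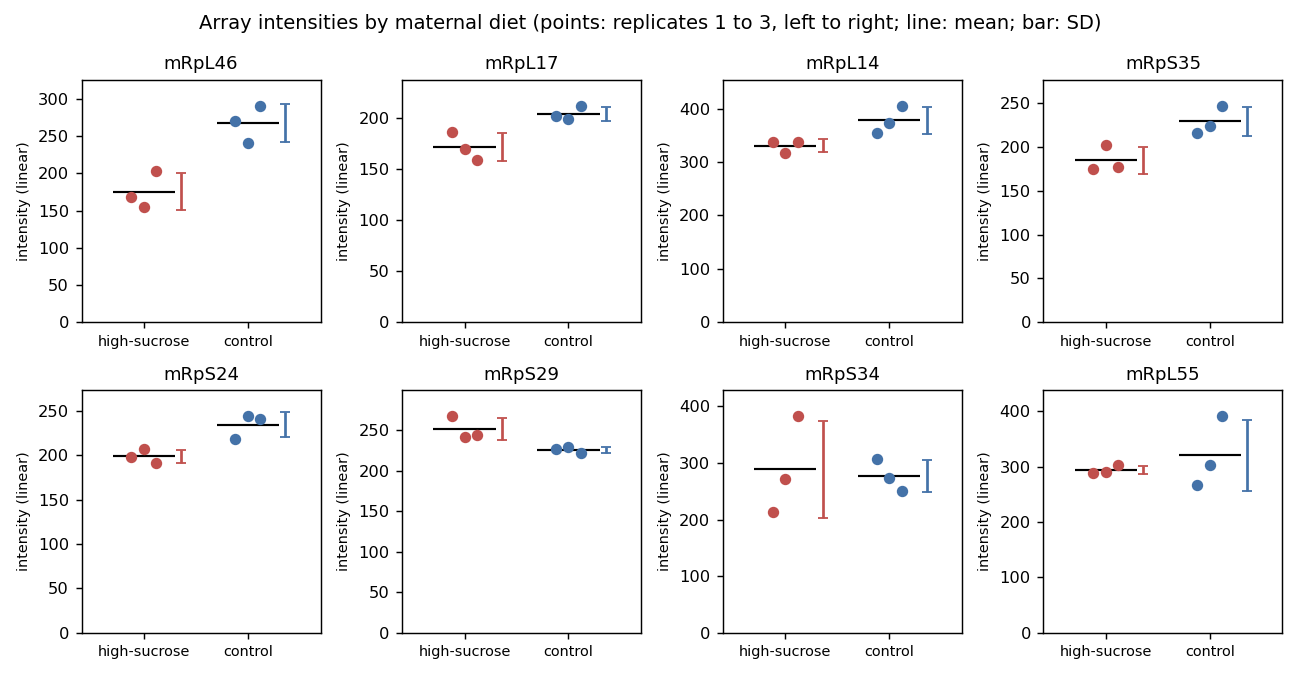
Linear intensity (y axis, from 0) of 8 genes in the 3 high-sucrose arrays (red, left) and the 3 control arrays (blue, right), with the mean as a line and the SD as a bar. mRpL46, mRpL17, mRpL14, mRpS35 and mRpS24 lie lower and mRpS29 higher in all high-sucrose arrays; in mRpS34 the high-sucrose arrays and in mRpL55 the control arrays spread widely.

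Many members varied more within a group than between the groups. The 2 given here are examples with a wide spread and were chosen after their values were seen. mRpS34 had 212, 271 and 382 in high-sucrose arrays, a 1.8-fold range within 1 group, against 306.5, 273 and 250 in control arrays. The groups overlap fully, and the log2 difference was 0.025 ± 0.17 (SE; limma adjusted p = 0.97). mRpL55 had 289, 291 and 303 in high-sucrose arrays, against 267, 303 and 391 in control arrays, where control 3 was 1.46 times control 1. Its log2 difference was -0.099 ± 0.12 (SE; limma adjusted p = 0.781).

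None of the genes of the functional core of the large subunit passed the test. mRpL1, mRpL10, mRpL11 and mRpL12 build the flexible stalks and the centre that receives elongation factors and triggers their GTPase. mRpL12, which also binds the mitochondrial RNA polymerase in human cells and is needed in flies for cyclin D-driven growth, had 336, 374.5 and 310.5 in high-sucrose arrays, against 346, 316.5 and 362 in control arrays. Those values overlap throughout, with a log2 difference of -0.0066 ± 0.083 (SE; limma adjusted p = 0.984). mRpL10, the base on which mRpL12 dimers sit, had 193, 214 and 194 in high-sucrose arrays, against 222, 221 and 228 in control arrays. Here the groups did not overlap, and the log2 difference was -0.15 ± 0.071 (SE; limma adjusted p = 0.435). The median over these 4 was -0.08, with 4 of 4 below 0, close to the -0.075 of all members. mRpL1 and mRpL11 had log2 differences of -0.077 (adjusted p = 0.798) and -0.084 (adjusted p = 0.798), with overlapping arrays.

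mRpL2 and mRpL3, whose bacterial counterparts shape the peptidyl transferase centre, gave 0.024 (adjusted p = 0.944) and -0.15 (adjusted p = 0.586). In mRpL3 high-sucrose 3 was the lowest array at 117, while high-sucrose 1 and 2 (142 and 151) lay within or near the range of the control arrays (145 to 159). Around the exit tunnel, mRpL4 and mRpL22 line the wall, mRpL23 and mRpL24 frame the opening, and mRpL45 anchors the mammalian ribosome to the inner membrane. mRpL22 had 244, 257 and 253 in high-sucrose arrays, against 277, 258 and 279 in control arrays, and its groups were separated only by the 257 and 258 of replicate 2. Its log2 difference was -0.10 ± 0.065 (SE; limma adjusted p = 0.559). The other 4 ranged from -0.12 (mRpL23) to 0.027 (mRpL45), with adjusted p from 0.669 to 0.928 and overlapping arrays.

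Other large-subunit genes named for their small p were mRpL35, mRpL18, mRpL33, mRpL50 and mRpL38, with log2 differences from -0.23 to -0.11 and adjusted p from 0.408 to 0.535. Of these, mRpL18, the counterpart of a 5S rRNA-binding protein of bacteria, had 151, 153 and 136 in high-sucrose arrays, against 161.5, 167 and 172 in control arrays. mRpL50 had 135, 133 and 129 in high-sucrose arrays, against 144, 141 and 160 in control arrays. Both kept the groups apart, whereas in mRpL35, mRpL33 and mRpL38 they overlapped. The brightest member of the subunit, mRpL28, averaged 934 ± 39.7 in high-sucrose arrays and 929.5 ± 85.3 in control arrays (SD, n = 3 each), and the dimmest, mRpL48, 79.5 ± 1.97 and 80.4 ± 3.08. These intensities compare arrays for 1 probe set and do not rank genes by the amount of their RNA.

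In the small subunit, mRpS2, mRpS5, mRpS7 and mRpS11 have bacterial counterparts in its body, head and platform. All 4 had log2 differences below 0, from -0.18 (mRpS2; adjusted p = 0.52) to -0.037 (mRpS5; adjusted p = 0.825), and in all 4 the arrays of the groups overlapped. mRpS5 was the member with the tightest interval, at 593.5, 576 and 561 in high-sucrose arrays, against 598, 575.5 and 604 in control arrays. Its log2 difference of -0.037 had a 95% interval from -0.16 to 0.084, which leaves no room for a change as large as that of mRpL46.

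mRpS14, a protein of the head, had 178, 190 and 182 in high-sucrose arrays, against 202, 213 and 198.5 in control arrays, without overlap (log2 difference -0.15 ± 0.07; limma adjusted p = 0.44). mRpS18B and mRpS28 also kept the groups apart, with log2 differences of -0.11 and -0.12. mRpS6, mRpS31 and mRpS33 did not, with -0.18, -0.12 and -0.13. Adjusted p for these 5 lay between 0.453 and 0.58. mRpS23, the dimmest of the subunit, was at -0.088 (adjusted p = 0.74).

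Of the relatives of a single bacterial protein, mRpS18A, mRpS18B and mRpS18C, the log2 differences were -0.017, -0.11 and 0.0018, with mRpS18C added after its values were seen. mRpS18A and mRpS30 carry small-subunit names, but structures of the mammalian ribosome place both in the large subunit. mRpS30 had 189, 192 and 180 in high-sucrose arrays, against 190, 167 and 204 in control arrays, a log2 difference of 0.004 ± 0.085 (SE; limma adjusted p = 0.991).

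The large and the small subunit lay close together. The median log2 difference was -0.077 over the 44 large-subunit genes (quartiles -0.12 and -0.015) and -0.07 over the 25 small-subunit genes (quartiles -0.12 and -0.017), a difference of -0.0064. Genes below 0 numbered 36 of 44 (81.8%) and 20 of 25 (80.0%). Arrays did not overlap in 8 lower and 0 higher large-subunit genes and in 5 lower and 1 higher small-subunit genes, against 14.5% lower and 6.73% higher of all genes. Counting mRpS18A and mRpS30 with the large subunit gave medians of -0.076 over 46 and -0.07 over 23 genes.

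Per array, the median over each subunit of the deviation from the control mean of each gene (log2 scale) showed which arrays carried the shift. The large subunit was at -0.11, -0.026 and -0.096 in high-sucrose arrays 1 to 3, against -0.047, -0.034 and 0.079 in control arrays. The small subunit was at -0.096, -0.037 and -0.08 in high-sucrose arrays, against -0.024, -0.012 and 0.033 in control arrays. High-sucrose 2 lay above control 1 and control 2 for the large subunit, so the groups overlapped there, while for the small subunit high-sucrose 2 was the nearest to the controls without overlap. Large minus small per array was -0.0045 ± 0.014 in high-sucrose arrays and 0.0007 ± 0.039 in control arrays (SD, n = 3 each).

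Control 3 stood apart from the other 5 arrays. It held the highest of the 6 values for 40 of the 69 mitoribosomal genes (58.0%), against 24.4% of all genes, and only 4 of the 69 lay below their 6-array mean there. High-sucrose 1 and high-sucrose 3 held the lowest value for 25 and 20 of the 69 (36.2% and 29.0%), against 20.6% and 19.8% of all genes. Without control 3 the median was -0.026 over the large and -0.052 over the small subunit, and the difference between them turned to 0.025. The large-subunit median was then close to the -0.027 of all probe sets, with 47 of the 69 genes below 0.

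**Figure D3:**
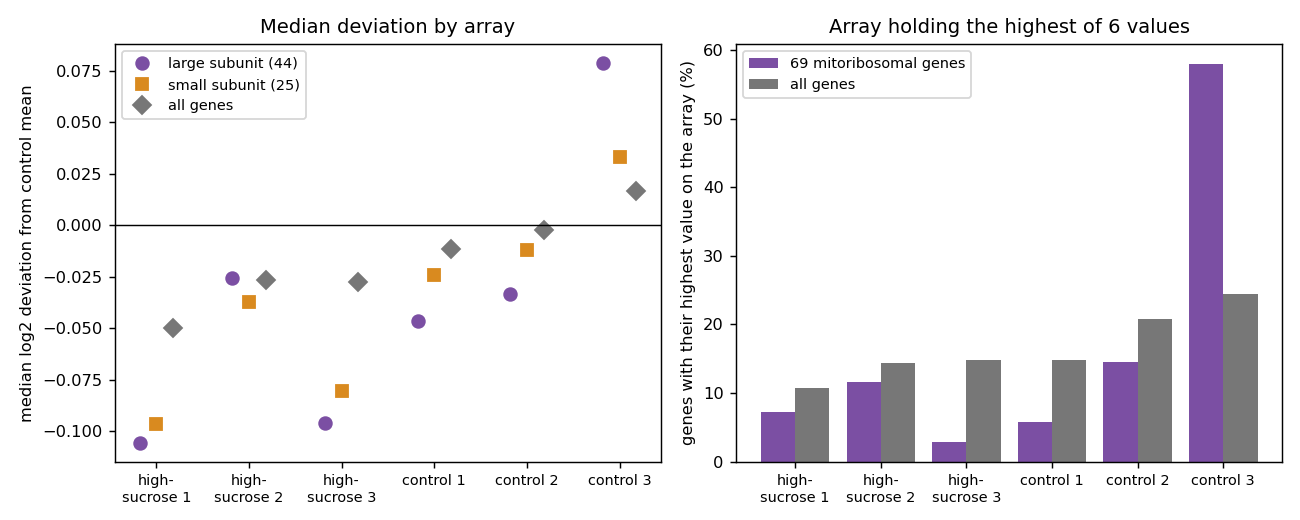
Left, median log2 deviation from the control mean (y axis) of the large-subunit genes, the small-subunit genes and all genes on each array (x axis). Right, share of genes with their highest of 6 values on each array, in percent, for the 69 mitoribosomal genes and for all genes; control 3 holds 58.0% against 24.4%.

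The names of mitoribosomal proteins allow a further split, since large-subunit numbers up to 36 and small-subunit numbers up to 21 follow the bacterial series and higher numbers were given to proteins found in mitochondria. The split is not exact, because mRpS24, mRpS28 and mRpL55 were later matched to bacterial proteins in mammalian structures. The 40 genes of the bacterial series had a median of -0.076 with 34 below 0, and the 29 with higher numbers a median of -0.073 with 22 below 0. By chromosome arm the medians ran from -0.039 over 10 genes on 2R to -0.10 over 11 on the X chromosome. They were -0.084 over 12 genes on 2L, -0.098 over 17 on 3L and -0.07 over 19 on 3R. No member had another member among its 2 nearest genes on either side in the RefSeq gene order.

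Where 2 probe sets read the same gene, both gave small differences. mRpS11 had log2 differences of -0.07 and -0.17 (adjusted p = 0.797 and 0.504), and mRpL47 of -0.059 and -0.0053 (0.772 and 0.99). A further 2 probe sets are assigned to a mitoribosomal gene together with another gene and are not counted above. The probe set of mRpL53 and CG33155 had 503, 511 and 471 in high-sucrose arrays, against 532, 528 and 583 in control arrays, and that of mRpS10 and CG34316 had 133.5, 134 and 135 in high-sucrose arrays, against 125, 137 and 139 in control arrays. The log2 differences were -0.14 (limma adjusted p = 0.407) and 0.0053 (limma adjusted p = 0.988).

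Mitoribosomal proteins that go by other names did not pass the test either. The bonsai gene, which encodes the protein numbered S15 in bacteria and is needed for larval growth, had 553, 586 and 718 in high-sucrose arrays, against 749, 642 and 776 in control arrays. The tko gene had 403, 407.5 and 414 in high-sucrose arrays, against 398, 441 and 486 in control arrays. In both the groups overlapped, with log2 differences of -0.22 ± 0.10 (SE; limma adjusted p = 0.428) and -0.11 ± 0.075 (limma adjusted p = 0.606).

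Genes that act with the mitochondrial ribosome were also without a call. Of 8 translation factors, which start, extend and recycle protein synthesis, 0 passed and all 8 were below 0, with a median log2 difference of -0.035. The lowest p among them belonged to mRRF1, mIF2 and mIF3, with -0.10, -0.14 and -0.091 (adjusted p = 0.686, 0.687 and 0.786). Of 14 mitochondrial tRNA synthetases, which charge tRNAs inside the organelle, 0 passed, 11 were below 0 and the median was -0.059. TrpRS-m had 352, 366 and 353 in high-sucrose arrays, against 311, 304 and 346 in control arrays, a log2 difference of 0.15 ± 0.068 (SE; limma adjusted p = 0.404). ArgRS-m was at -0.28 and AsnRS-m at -0.18 (adjusted p = 0.415 and 0.49).

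Of 15 genes for transcription, RNA handling and DNA maintenance in mitochondria, 0 passed, 13 were below 0 and the median was -0.085. SLIRP2, a relative of the mammalian partner of LRPPRC that protects mitochondrial messenger RNA, had 125, 132 and 134.5 in high-sucrose arrays, against 154, 170 and 174 in control arrays. No arrays overlapped, and the log2 difference was -0.31 ± 0.08 (SE; limma adjusted p = 0.151). mTerf3, which takes part in mitoribosome assembly in flies, was at -0.21 (adjusted p = 0.486, no overlap), and rswl, a subunit of mitochondrial RNase P, at -0.32 with wide spread (adjusted p = 0.618).

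Of 13 genes of protein import, the route by which ribosomal proteins enter the organelle, 0 passed, and 7 were below 0, with a median of -0.017. Tim17b2 had 263, 222 and 228 in high-sucrose arrays, against 190, 170 and 210 in control arrays (log2 difference 0.30 ± 0.095; limma adjusted p = 0.241). Tim17b1 was at 0.22 (adjusted p = 0.364) and Tim8 at -0.22 (adjusted p = 0.28), each without overlap. Of 6 listed regulators of nuclear genes for mitochondria, the 4 with a probe set of their own, Ets97D, ewg, ERR and Dref, had log2 differences from -0.073 to 0.043 (adjusted p of at least 0.836), with overlapping arrays.

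Genes with symbols of cytosolic ribosomal proteins gave a median close to that of the mitoribosomal genes. Of 41 such genes 0 passed, 34 were below 0, and the median log2 difference was -0.079. The list holds genes named -like and dimmer paralogues beside standard genes. The 7 above 0 were all of these kinds: RpL22-like, RpL24-like, RpS28-like, RpS5b, RpS10a, RpS19b and RpL37-2. Others of these kinds, among them RpLP0-like and RpL7-like, lay below 0. Groups did not overlap in 23 lower (56.1%) and 2 higher of the 41. Among the 69 mitoribosomal genes they did not overlap in 13 lower (18.8%) and 1 higher. For all genes the shares were 14.5% lower and 6.73% higher, 21.2% together. The intervals of the 41 were narrower (median 0.10 either side, against 0.19). The list is bright, with a median intensity of 7019. The highest value of an array was 11770 to 12080 in high-sucrose arrays and 12780 to 13050 in control arrays. The list was not counted again under other scalings, so the part of array scaling in its counts was not tested. RpL36A had 7241, 7093 and 7046 in high-sucrose arrays, against 7671, 7938 and 7792 in control arrays (-0.13 ± 0.042; limma adjusted p = 0.25). RpL28 and RpL40 were at -0.12 each (adjusted p = 0.275 and 0.303), and all 3 lay lower on every high-sucrose array. Of 71 genes for subunits of oxidative phosphorylation, 0 passed and 52 were below 0, with a median of -0.065. Most of these complexes, though not that of the Sdh genes, hold proteins made by mitochondrial ribosomes. ATPsynepsilonL, COX7AL and COX7A had the smallest p, with log2 differences of 0.26, 0.32 and -0.16 (adjusted p = 0.216, 0.22 and 0.24). The list pools standard subunits with paralogues whose symbols end in L, several of which are known in flies for expression in the testis. Split by symbol after the values were seen, 14 of the 18 paralogues were above 0 (median 0.14), and 48 of the other 53 genes were below 0 (median -0.081), with 0 called in both. The 53 include dim genes, among them ND-B8 with means of 34.5 in high-sucrose and 23.1 in control arrays. ND-B8 had the highest log2 difference of the 71 (0.37; limma adjusted p = 0.267). Summed testis markers, at 3846 to 3996 in high-sucrose arrays and 2969 to 3493 in control arrays, were also higher in high-sucrose arrays, and their part in these values was not tested.

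**Figure D4:**
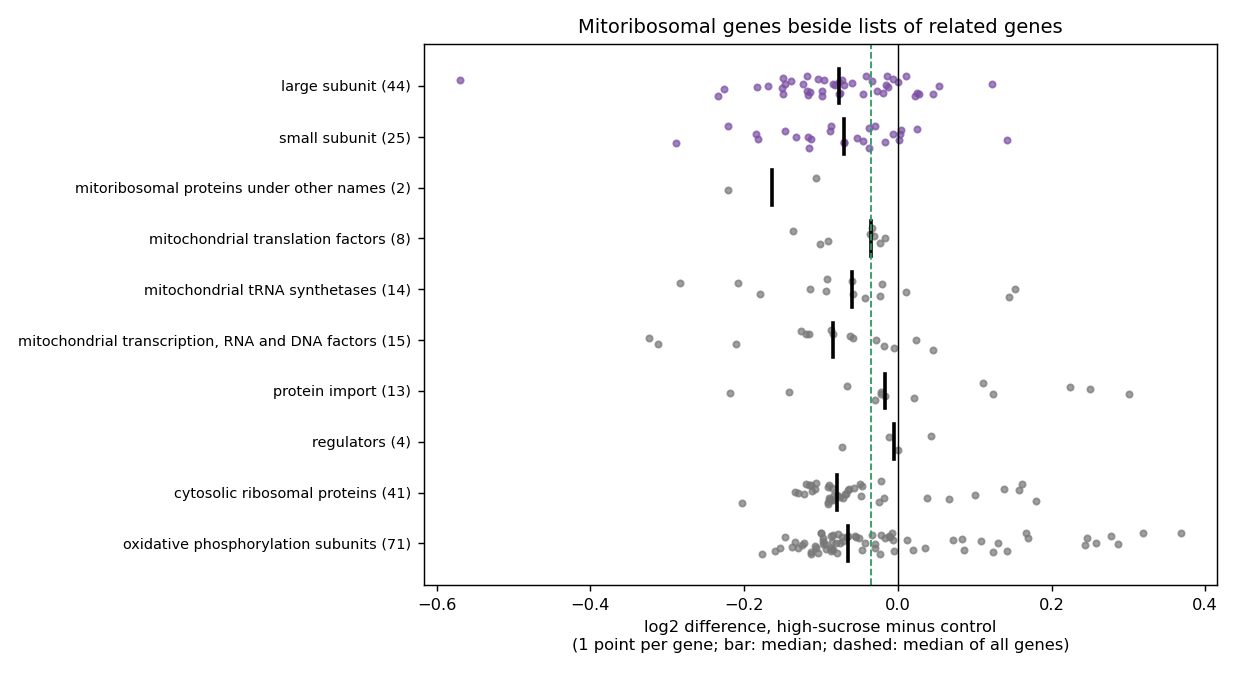
Log2 difference, high-sucrose minus control (x axis), of each gene of the large and small mitoribosomal subunit (purple) and of 8 related lists (grey), with the number of genes in brackets, the median as a bar and the median of all genes as a dashed line. Medians lie between -0.16 and -0.0056, and no gene shown passed the test.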

How the data were processed

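The authors deposited 1 linear intensity per probe set and array; per the labels' protocols, biotinylated cRNA was made from 2 ug of total RNA. Not given in the sources used here is how probe signals were summarised, corrected and scaled. Array medians were 51.5 to 55.7 and 26.7% to 30.2% of values lay under 16; array number limits the precision. The labels number the arrays as biological replicates.

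After 183 control probe sets were left out, 18769 were tested on log2(intensity + 16) with limma 3.58.1 in R 4.3.3 (2 groups, empirical Bayes variances with an intensity trend, 4 residual and 5.16 prior degrees of freedom; Benjamini-Hochberg over all). A gene was represented by its probe set with the highest mean. The methods were tested on simulated data.

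Members, lists and the alternatives were chosen with earlier results of these data known. Named genes were the 10 of each subunit with the smallest p, a list of members with known roles, the brightest and dimmest of each subunit, and up to 3 per related list. A few others are marked as chosen after their values were seen. Gene symbols came from the platform's probe table, and all 69 members matched by gene ID to RefSeq genes of Release 6 plus ISO1 MT, used for chromosome arms and gene order. Medians over members are descriptions without a test.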

Additional observations from a re-analysis of the deposited data

How the results depend on the processing

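The mitoribosomal genes called lower numbered 0 in the main setting and 1, mRpL46, with the replicate block, median centring, the upper 50% or 70% of probe sets by mean, array weights, an adjusted p threshold of 0.10 and the mean of all single-gene probe sets; genes called higher numbered 0 in every setting, and without any 1 array both counts were 0. The median log2 differences of the large and small subunits moved to -0.038 and -0.015 under quantile scaling, -0.039 and -0.026 under cyclic loess and -0.05 and -0.043 under median centring. Leaving out 1 array gave -0.11 to -0.026 for the large subunit, -0.097 to -0.051 for the small and -0.025 to 0.025 for their difference. Over all probe sets, higher and lower calls were 4 and 59 with the replicate block, 1 and 3 without the intensity trend and 36 and 228 at a threshold of 0.10, and the higher ones 17 under quantile scaling, 23 under median centring and 17 under cyclic loess; leaving out 1 array gave 2 (without control 2) to 9 higher and 11 (without control 2) to 154 (without high-sucrose 2) lower. Deviations of same-numbered arrays correlated at -0.072, 0.025 and -0.014, which gave no sign of pairing by replicate number but cannot exclude it. Correlations between arrays of unlike number ran from -0.21 (high-sucrose 3 and control 2) to 0.24 (high-sucrose 3 and control 1). Apart from mRpL46, the replicate block changed no call among the members. Of the repeats for named mitoribosomal genes, 627 kept direction and side of the threshold, and 7 (all mRpL46) passed it. A further 32 turned the sign of a difference that lay between -0.077 (mRpL1) and 0.027 (mRpL45) in the main setting. With array weights these were mRpS30 (-0.013) and mRpL2 (-0.00799). Quantile scaling, median centring and cyclic loess gave 0.031, 0.0202 and 0.035 for mRpL12, 0.015, 0.013 and 0.013 for mRpL48 and 0.025, 0.0096 and 0.018 for mRpS18A, and quantile scaling and cyclic loess 0.021 and 0.013 for mRpS5. Leaving out 1 array gave -0.069 to 0.064 for mRpS30, -0.064 to 0.077 for mRpL2, -0.18 to 0.0056 for mRpL1, -0.072 to 0.034 for mRpS18A, -0.075 to 0.054 for mRpL12, -0.042 to 0.079 for mRpL45, -0.0397 to 0.0044 for mRpL48, -0.15 to 0.057 for mRpL4 and -0.067 to 0.055 for mRpL28. The causes were not tested.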
